A study of Macaca mulatta with 4 samples.

Results

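Chromosome 10 of the rhesus macaque (Macaca mulatta) carried broad H3K27me3 coverage in morulae with a maternal genome only, and its inner part is described here in bins of 10 kb. The chromosome was selected on measured values, the coverage of the GG libraries on it, which lay well above that of the autosomes. Its GG level is therefore a description and supports nothing by itself. Bins were counted from position 0, and the first and last 5 Mb of the 92.8 Mb span were left out, where the span ends at the highest interval end in any library. This left 8284 bins, from 5000001 to 87840000 on the build rheMac8, of 283406 bins in the whole data set and of 247347 inner bins on the 20 autosomes.

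The libraries came from CUT&RUN, in which an antibody to the mark guides a nuclease that releases the DNA beneath it for sequencing. There were 2 libraries labelled AG and 2 labelled GG, all from morulae treated alike with an anti-H3K27me3 antibody. The series calls these embryos androgenetic and gynogenetic, that is, with nuclear DNA from the father only (AG) or from the mother only (GG), and is concerned with genomic imprinting before implantation. The labels give neither the number of embryos in a library nor their parents, and do not say that replicates were separate pools, so the spread between 2 libraries may be technical. Biparental embryos and a library without antibody were not analysed here.

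H3K27me3 is trimethylation of lysine 27 on histone H3. It is written by the Polycomb repressive complex PRC2, spreads over wide stretches of chromatin and is associated with silent genes, many of them developmental regulators. In mouse embryos, wide H3K27me3 domains that come from the oocyte can silence the maternal copy of some genes, a form of imprinting that does not rest on DNA methylation.

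Each library is given as intervals, stretches of bases under sequenced tags on islands that the submitters called enriched, with no tag count. Of the 42512 intervals of AG replicate 1 and the 44337 of AG replicate 2, the inner part of chromosome 10 held 1170 and 1398. Of the 362999 and 287230 intervals of GG replicates 1 and 2 it held 15898 and 14635. Sequencing depth is unknown. Bases between intervals lack kept tags but may still carry the mark. Per the names of the deposited files, SICER ran with windows of 200 bp and gaps of 200 bp for AG, but with windows of 300 bp and gaps of 1200 bp for GG. The calling settings and the groups cannot be told apart in any direct AG to GG difference below. An exact two-sided permutation test on 4 libraries cannot go below p = 0.333, so values are set side by side without one.

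GG libraries covered a wide part of the inner bins of chromosome 10, whereas AG libraries covered very little. The covered share was 11.6% in GG replicate 1 and 12.2% in GG replicate 2, and 0.435% and 0.608% in AG replicates 1 and 2. In megabases this was 9.62 and 10.1 Mb in GG, against 0.361 and 0.503 Mb in AG. The 2 GG libraries were close to each other and far above both AG libraries, and the means of 11.9% ± 0.435 and 0.522% ± 0.122 (SD, n = 2 each) gave a ratio of 22.9. Over the inner bins of all autosomes the means were 6.48% ± 0.519 in GG and 0.450% ± 0.0811 in AG, a ratio of 14.4.

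Relative to the autosomal inner bins of the same library, chromosome 10 lay at 1.70 and 2.00 times in GG replicates 1 and 2 and at 1.11 and 1.20 times in AG replicates 1 and 2. This ratio takes out the library's total. The AG level, which played no part in choosing the chromosome, was above 1 in both libraries but ordinary among autosomes, at place 9 of 20 in replicate 1 and place 7 in replicate 2. In GG the chromosome stood at place 3 in replicate 1 and place 2 in replicate 2. Its neighbours in that order were chromosome 16, at 1.85 and 1.99 times in the GG replicates, and chromosome 19, at 1.74 and 2.12 times. The means were 1.85 ± 0.215 for chromosome 10, 1.92 ± 0.0992 for chromosome 16 and 1.93 ± 0.269 for chromosome 19 (SD, n = 2 each). Chromosome 19 lay above chromosome 10 in both GG libraries. Chromosome 16 lay above chromosome 10 in replicate 1 and below it in replicate 2. With 2 libraries the order of the 3 chromosomes in GG is not resolved. Chromosome 9 came next, at 1.48 and 1.67 times, and lay below chromosome 10 in both libraries.

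In AG, chromosome 10 lay below chromosomes 16 and 19 in both libraries. It stood at 1.15 ± 0.0633 times the autosomal level, against 1.43 ± 0.275 times for chromosome 16 and 1.79 ± 0.351 times for chromosome 19 (SD, n = 2 each). In AG replicates 1 and 2, chromosome 10 stood at 1.11 and 1.20 times, chromosome 16 at 1.23 and 1.62 and chromosome 19 at 1.54 and 2.03. The SDs of chromosomes 10 and 16 overlapped and those of chromosomes 10 and 19 did not. With 2 libraries such overlap decides neither difference, and neither was tested. The ratio of mean GG to mean AG coverage on chromosome 10 had the highest value among the 20 autosomes, but GG coverage chose the chromosome and is the numerator, so nothing is read from this place. Over the 4 pairs of a GG with an AG library this ratio ran from 19.1 to 28.1 on chromosome 10, from 12.0 to 17.4 on all autosomes, and from 15.2 to 32.3 on chromosome 20, which came second. The pairs of chromosomes 10 and 20 overlapped.

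**Figure D1:**
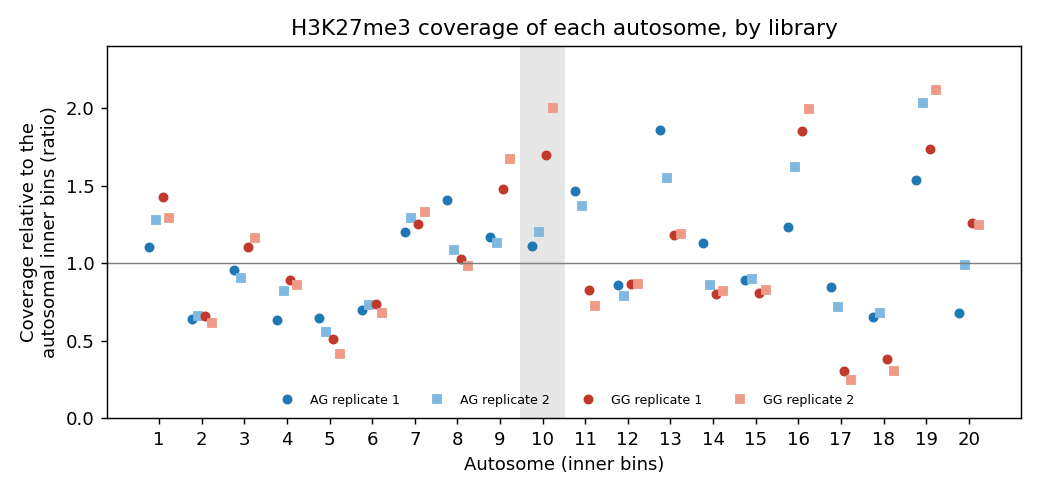
Coverage of each autosome's inner bins relative to all autosomal inner bins of the same library (vertical axis, a ratio, with 1 as a grey line), with a point for each of the 4 libraries and chromosome 10 shaded. The GG points of chromosome 10 lie at 1.70 and 2.00 and its AG points at 1.11 and 1.20.

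About as many GG bases of chromosome 10 lay inside 6 stretches of high coverage, of 1 to 4 Mb each, as lay outside them. In the 82 whole windows of 1 Mb, 12 (14.6%) had a coverage of 25% or more in both GG libraries, against 5.59% of 2380 such windows on the other autosomes together. Chromosome 19 had 16.3%, chromosome 9 had 14.3% and chromosome 16 had 8.96%, so a share of this size was not limited to chromosome 10. The 12 windows formed 6 stretches. They took up 14.5% of the inner length and held 48.3% and 53.7% of the covered bases in GG replicates 1 and 2. In AG the same stretches held 30.7% and 28.3% of the covered bases of replicates 1 and 2. The richest 10% of windows, ranked in each library, held 35.9% and 41.2% of the covered bases of the GG replicates, against 46.4% and 53.6% over the other autosomes pooled and 31.5% and 34.4% on chromosome 16.

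The longest stretch ran from 54000001 to 58000000. Its coverage was 38.0% and 49.6% in GG replicates 1 and 2, and 1.45% and 1.37% in AG replicates 1 and 2. The stretch from 5000001 to 8000000 was covered to 38.3% and 42.0% in the GG replicates and to 0.814% and 1.75% in the AG replicates. A stretch from 68000001 to 70000000 reached 43.2% and 53.9% in GG, and AG held 0.634% and 0.636% there. The single windows starting at 16000001, 52000001 and 78000001 completed the set, with GG coverage between 32.3% and 42.5%. Both AG libraries lay above their own chromosome 10 level in 4 of the 6 stretches, those starting at 5000001, 54000001, 68000001 and 78000001. Both lay below it in the window starting at 52000001, and the AG replicates fell on different sides in the window starting at 16000001.

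The 5 windows with the highest mean GG coverage lay in these stretches. The window from 6000001 to 7000000 was covered to 58.2% and 65.0% in GG replicates 1 and 2, and to 1.15% and 1.91% in AG replicates 1 and 2. It was also among the 5 windows highest in AG. The window from 57000001 to 58000000 followed with 46.5% and 62.6% in GG and 0.678% and 0.808% in AG. The windows from 68000001, 69000001 and 56000001 had mean GG coverages of 51.0% ± 7.46, 46.1% ± 7.60 and 43.1% ± 6.55 (SD, n = 2 each). GG replicate 2 was the higher one in all 5.

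The 5 windows with the highest mean AG coverage were spread over the chromosome. The first, from 54000001 to 55000000, was covered to 2.39% and 2.69% in AG replicates 1 and 2 and to 33.7% and 41.4% in GG replicates 1 and 2. The window from 18000001 to 19000000 had 1.57% and 1.80% in AG and 24.8% and 24.6% in GG. The next was the window from 58000001 to 59000000, where AG held 1.32% and 1.91% while GG held only 5.99% and 10.0%. It directly follows the long GG stretch that ends at 58000000, and GG coverage fell there below the chromosome's own level in both libraries. The window from 79000001 to 80000000 closed the set with 1.16% and 1.62% in AG and 16.2% and 17.9% in GG.

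**Figure D2:**
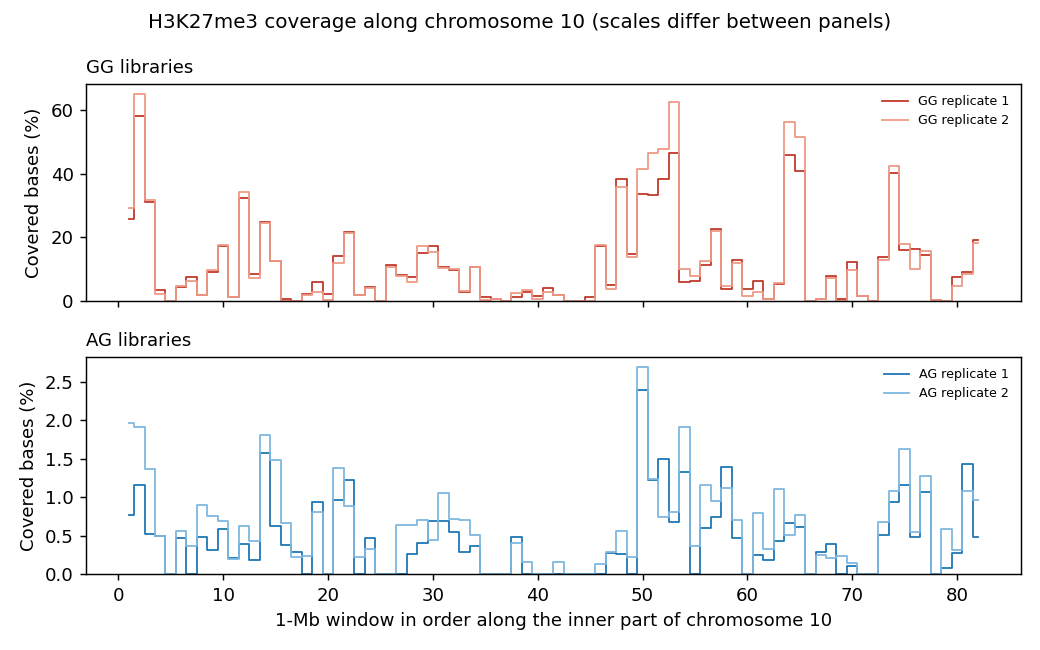
Percentage of bases covered in each of 82 windows of 1 Mb, in order along the inner part of chromosome 10 (horizontal axis, window number), for the GG libraries in the upper panel and the AG libraries in the lower one, whose scale is smaller. The GG lines rise to 58.2% and 65.0% in the second window and both groups fall to 0 in 6 windows.

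Outside the 12 high windows chromosome 10 still lay above the autosomes in GG, the group whose coverage chose it. With windows of 25% or more in both GG libraries left out of every autosome, a choice made after seeing the data, it lay at 1.42 and 1.65 times the remaining autosomal level in GG replicates 1 and 2, and at 1.04 and 1.13 times in AG replicates 1 and 2. The median window was covered to 7.66% and 6.73% in the GG replicates, against 2.61% and 1.50% on the other autosomes. In AG the median window held 0.338% and 0.530%, against 0.120% and 0.186% elsewhere. Chromosome 16 had medians of 10.4% and 9.42% in the GG replicates and 0.355% and 0.530% in the AG replicates. Chromosome 19 had 5.92% and 4.67% in GG and 0.401% and 0.812% in AG. The medians of chromosome 9 lay below those of chromosome 10 in every library. Of the 82 windows 6 (7.32%) had no covered base in any library, against 14.3% on the other autosomes together, 5.97% on chromosome 16, 2.33% on chromosome 19 and 9.24% on chromosome 9. Whether these windows hold assembly gaps or repeats was not tested.

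When the inner part was cut into 4 segments of 2071 bins, segment 2, from 25710001 to 46420000, was the poorest in all 4 libraries. It was covered to 6.93% and 6.66% in GG replicates 1 and 2 and to 0.261% and 0.377% in AG replicates 1 and 2. Relative to the autosomes this was 1.01 and 1.09 times in GG, so that here the GG level was close to the autosomal one. Segment 3, from 46420001 to 67130000, was the richest in GG with 14.6% and 16.6%. In AG the richest segment differed between replicates, segment 3 in replicate 1 with 0.545% and segment 1 in replicate 2 with 0.804%. The edges of the inner part are set by position alone. The last 1 Mb before its start held 2.67% and 2.81% in the GG replicates and the first 1 Mb inside held 25.8% and 29.3%. At its end the last 1 Mb inside held 8.76% and 9.001%, and the 1 Mb beyond it 13.2% and 11.6%.

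AG and GG coverage rose and fell together along the chromosome in rank. Across the 82 windows Spearman's rho between the summed AG and summed GG coverage was 0.717, against 0.640 over the windows of the other autosomes. It was 0.280 on chromosome 16, 0.460 on chromosome 19 and 0.592 on chromosome 9. The 82 windows include 17 without an AG base, which tie in rank, and 6 of these had no base in any library. Within a group, the windows of chromosome 10 gave a Pearson r of 0.985 between the GG replicates and 0.852 between the AG replicates. Neighbouring windows share domains and are not independent, so these are descriptions. In 8 windows both AG libraries lay above their own chromosome 10 level while both GG libraries lay below theirs, and in 3 windows the reverse held. One of the latter was the window from 50000001 to 51000000, covered to 17.3% and 17.6% in the GG replicates, with 0% and 0.133% in AG replicates 1 and 2.

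**Figure D3:**
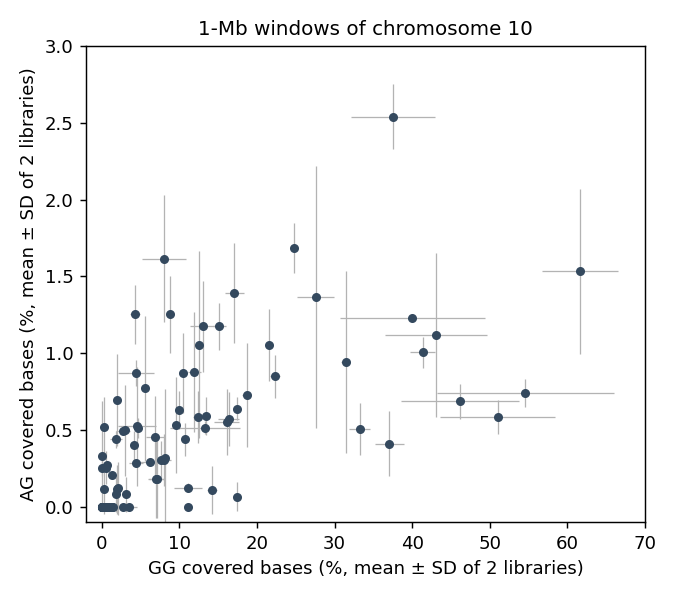
Mean covered percentage in GG (horizontal axis) against AG (vertical axis) for 82 windows of 1 Mb on chromosome 10, each with bars of ± SD over 2 libraries. Windows above 40% in GG lie between 0.584% and 1.53% in AG, and the AG maximum of 2.54% lies at 37.5% in GG.

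The GG replicates differed from each other in a patterned way. Of 12 windows with a mean GG coverage of at least 25%, 11 were higher in replicate 2. Of 63 windows with lower but detected GG coverage, only 24 were higher in replicate 2. On the other autosomes replicate 2 was the higher one in 98 of 143 and in 366 of 1806 such windows. Among windows of at least 25% it was higher in 15 of 17 on chromosome 9 and in 6 of 7 on each of chromosomes 16 and 19. GG replicate 2 had fewer intervals on chromosome 10 than replicate 1, and they were longer, with medians of 359 and 308 bp. The part of these interval numbers and lengths in the difference was not tested. Of the 20 autosomes, chromosome 10 had the second highest ratio of its relative level in GG replicate 2 to that in replicate 1, at 1.18.

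Bin by bin, GG marked many bins of the inner part of chromosome 10 and AG few. A bin was called marked with at least 450 covered bases, which is 3 times the commonest interval length of 150 bp. In GG, 1644 and 1509 bins were marked in replicates 1 and 2 and 1387 (16.7%) in both, where 10.3% of all bins in the genome were marked in both GG libraries. That excess restates the choice of the chromosome. In AG, 172 and 291 bins were marked in replicates 1 and 2 and 130 (1.57%) in both, where the genome had 1.40% and the inner bins of the other autosomes 1.14%. The AG share was thus near the former and somewhat above the latter. No base was covered in any library in 6342 bins (76.6%), against 85.7% of the inner bins of the other autosomes together, 75.4% on chromosome 16 and 74.2% on chromosome 19.

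Replicates shared more marked bins in GG than in AG. Bins marked in both GG libraries made up 0.785 of those marked in either, against 0.680 on the other autosomes together, but 0.781 on chromosome 16, 0.786 on chromosome 19 and 0.755 on chromosome 9. For AG the fraction was 0.390 on chromosome 10 and 0.406 on the other autosomes. In bases, 79.1% of those covered in GG replicate 1 were also covered in GG replicate 2 (other autosomes 69.0%), and 75.2% the other way (other autosomes 78.1%), so the direction of this comparison depends on which library is the base. In AG 52.9% of the bases of replicate 1 were covered in replicate 2, and 37.9% of the bases of replicate 2 in replicate 1, where the other autosomes had 57.5% and 44.7%. A set that fills more of a chromosome overlaps more for that reason alone, and GG coverage chose this one. AG replicate 2 marked the larger set, and without AG replicate 1 there were 291 marked AG bins.

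In the libraries as deposited, most AG-marked bins lay where GG was marked too. Of the 130 bins, 88 (67.7%) were marked in both GG libraries, where the genome had 59.9% and the other autosomes' inner bins 63.2%. In the median such bin, GG replicates 1 and 2 covered 8256 and 8367 bases and the AG replicates 2000 and 2096 bases. In these shared bins GG thus filled most of the bin and AG a minor part of it. Of the bases covered in both AG libraries, 68.8% were covered in both GG libraries, against 63.7% on the other autosomes. Without AG replicate 1 the shared bins numbered 173. With every library thinned to 42512 intervals, which removes mainly GG intervals, only 12.3% of the AG-marked bins were marked in both GG libraries and 46.2% had no GG base, so the majority does not hold there.

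AG-marked bins without any GG base numbered 36 (27.7%), where the genome had 30.9% of AG-marked bins and the other autosomes' inner bins 25.9%. They were poorer than the shared ones, with a median of 1465 covered bases in either AG library and no bin above 3638. They lay apart from each other in 30 runs, 24 of them a single bin and none longer than 2 bins. The 3 longest, taken by position among 6 of equal length, ran from 5510001 to 5530000, from 17590001 to 17610000 and from 18430001 to 18450000. In the last of these AG replicates 1 and 2 had 2962 and 3471 covered bases. The distance from such a bin to the nearest bin marked in both GG libraries had a median of 70 kb, and 16 of the 36 lay within 50 kb. Of the 36, segment 1 held 16, segment 2 held 6, segment 3 held 4 and segment 4 held 10. Segment 3 had 39 AG-marked bins in all, of which 35 were shared with GG, whereas segment 1 had 41 with 22 shared. Without AG replicate 1, 100 bins were marked in AG without a GG base.

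Seen from GG, 1171 of the marked bins (84.4%) were bare in both AG libraries, where the genome had 81.7%. Their median content of 6523 and 7655 covered bases in GG replicates 1 and 2 was below that of the shared bins. The 1387 GG-marked bins formed 295 runs of adjacent bins, the longest of 49 bins. Runs of 10 or more bins numbered 29 and held 42.5% of the GG-marked bins, against 31.7% on the other autosomes. Single-bin runs held 4.83%, against 5.85%. GG coverage chose the chromosome, so these GG shares are a description.

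AG marks were found in GG runs of every length. The share of GG-marked bins that were also AG-marked was 5.97% in single-bin runs, 8.47% in runs of 2 to 4 bins, 5.11% in runs of 5 to 9 bins and 5.76% in runs of 10 or more. On the other autosomes it was 15.1%, 9.56%, 7.18% and 6.66% in the same order. The largest gap was thus in single-bin runs, where chromosome 10 had 4 AG-marked bins of 67. Counted per run, an AG-marked bin was held by 5.97% of single-bin runs, 15.2% of runs of 2 to 4 and 25.9% of runs of 5 to 9. The other autosomes had 15.1%, 16.7% and 26.7%, so these classes kept the direction of the shares per bin. Only runs of 10 or more went the other way, with 18 of 29 (62.1%) against 179 of 371 (48.2%) on the other autosomes. Run lengths within that class were not matched. These shares were not tested.

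H3K27me3 domains on chromosome 10 were far wider in GG than in AG. Intervals no more than 1500 bp apart were joined into domains, keeping those with at least 450 covered bases inside the inner part. They numbered 697 and 501 in GG replicates 1 and 2 and 141 and 271 in AG replicates 1 and 2. The N50 is the domain width above which lies 50% of the summed width of all domains. It was 22748 and 37203 bp in the GG replicates and 3470 and 2611 bp in the AG replicates. The groups did not overlap, with means of 29976 ± 10221 bp and 3041 ± 607 bp (SD, n = 2 each). The wider calling gap in GG can lengthen domains there, and its part was not tested.

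Against the other autosomes, where the same settings apply within a group, GG domains were wider on chromosome 10 and AG domains narrower. The N50 on the other autosomes was 20119 and 25831 bp in the GG replicates and 4433 and 3567 bp in the AG replicates. Both libraries of each group thus pointed the same way. The chromosome was chosen on GG coverage, so the GG widths, counts and densities given here are a description. The other autosomes were pooled, and domains of single ones were not compared. Domains of at least 100 kb numbered 8 and 14 in GG replicates 1 and 2, or 9.66 and 16.9 per 100 Mb, against 3.22 and 5.77 per 100 Mb elsewhere. AG had none. Domains of at least 50 kb held 25.3% and 38.6% of the summed width in the GG replicates. Domains were also denser, with 8.41 and 6.05 per Mb in the GG replicates against 5.41 and 3.53 elsewhere, and 1.70 and 3.27 per Mb in the AG replicates against 1.30 and 2.18.

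**Figure D4:**
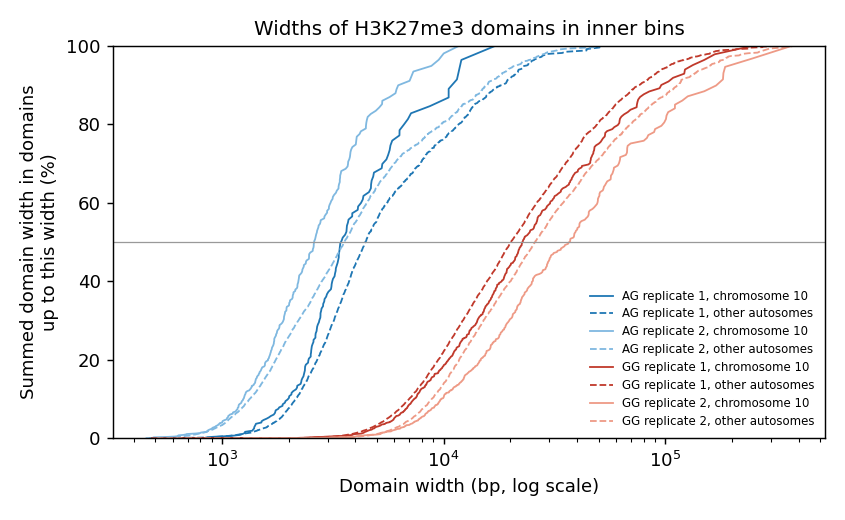
Percentage of the summed domain width held by domains up to a given width (horizontal log axis in bp), for each library, with solid lines for chromosome 10 and dashed lines for the other autosomes. The solid GG lines cross 50% at 22748 and 37203 bp, to the right of their dashed lines, and the solid AG lines cross it at 3470 and 2611 bp, to the left of theirs.

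When the intervals of both GG libraries were joined, the widest domain ran from 6322576 to 6694457 (371.9 kb). It was covered to 87.2% and 94.8% in GG replicates 1 and 2 and to 0.498% and 2.20% in AG replicates 1 and 2. The second spanned 294.2 kb from 69218934 to 69513088, with 73.1% and 88.5% of it covered in GG, and AG replicate 1 held 0.698% and AG replicate 2 none. The third, from 78483527 to 78731274 (247.7 kb), was the most evenly filled, with 91.1% and 94.1% in GG, and had the most AG bases of the 5, with 3.08% and 3.33%. The domains from 13939475 to 14147783 (208.3 kb) and from 57556305 to 57742296 (186.0 kb) followed, and no GG library covered less than 76.9% of either. Of these 5 domains, the fourth lay outside the 6 high stretches. Which genes they hold was not analysed here.

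In all, 15 joined GG domains of at least 100 kb covered in both libraries lay in the inner part, with a median width of 152.1 kb. Of these 2 had no AG base, 10 had at least 450 AG bases in both AG libraries, and 3 lay between. AG coverage of these domains had a median of 1.75% and reached 10.3% at most, so that AG filled a small part even where it was present.

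The 5 widest AG domains were short, and each GG library covered at least 91.5% of all but the fifth. The widest spanned 17.1 kb from 54851442 to 54868500. AG replicates 1 and 2 covered 71.5% and 47.3% of it, and both GG libraries 99.9%. The next spanned 12.1 kb from 55719796 to 55731850, with 85.3% and 84.4% covered in AG against 98.6% and 97.9% in GG. The third, from 54646276 to 54658028 (11.8 kb), was uneven between the AG replicates, with 39.4% and 65.5%, and held 97.3% and 98.8% in GG. All 3 lay inside the longest GG stretch. The fourth spanned 11.7 kb from 61465836 to 61477579, and no GG library covered less than 91.5% of it.

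The fifth AG domain behaved differently. It ran from 23251300 to 23263041 (11.7 kb) and was covered to 79.4% and 69.1% in AG replicates 1 and 2. GG replicate 1 covered 39.6% of it and GG replicate 2 covered none, so the GG libraries disagreed there. Over all 108 AG domains covered in both AG libraries, 70 had 50% or more of their width under both GG libraries, 31 had no GG base and 7 lay between. The domains without a GG base had a median width of 3119 bp, against 3945 bp for the 70.

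In a bin test of AG against GG, most tested bins on chromosome 10 were higher in GG, as they were in the whole genome. Bins with at least 750 covered bases in at least 2 libraries were tested with limma on log2(covered bases + 300), without scaling, with Benjamini-Hochberg adjustment over 30536 bins of the genome at 0.05. This filter left 1415 of the 8284 inner bins of chromosome 10. Of these, 1272 (89.9%) were higher in GG, where 85.1% of all tested bins were. Higher in AG were 33 bins (2.33%), where the genome had 3.85%. The median log2 difference, AG minus GG, was −4.40 on chromosome 10 and −4.32 over all tested bins, and after scaling by library totals these medians were −2.62 and −2.56. GG coverage chose this chromosome, so nothing is read from the first count. Of the bins higher in GG 1140 had no AG base, and all 33 bins higher in AG had no GG base. Such bins passed the filter through 1 group alone, so their calls restate that only that group was covered. Without either GG library fewer bins were called higher in AG, on chromosome 10 and over the genome.

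The 5 bins with the largest AG excess each held no GG base. The bin from 5550001 to 5560000 had 3133 bases covered in AG replicate 1, 3320 in AG replicate 2 and 0 in each GG library. Its log2 difference was 3.55 with an SE of 0.0479 (limma, adjusted p = 4.82e-05). Both GG values were 0, so GG added no spread to this SE, and the call restates that only AG was covered. The bin lies inside the high GG stretch that begins at 5000001. The bins from 18460001, 26550001, 81660001 and 23260001 followed with log2 differences of 3.54, 3.31, 3.09 and 3.09. The last of these overlaps the AG domain that GG replicate 2 lacked. These log2 differences depend on the 300 bases added and are no measured folds.

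The 5 bins with the largest GG excess all lay between 5790001 and 6860000. The first, from 5790001 to 5800000, had 9997 bases covered in GG replicate 1, 10000 in GG replicate 2 and 0 in each AG library. Its log2 difference was −5.10 with an SE of 0.0206 (limma, adjusted p = 1.00e-05). Both AG values were 0, so AG added no spread to this SE, and the call restates that only GG was covered. The bins from 6840001, 5810001, 6850001 and 5830001 held at least 9967 bases in both GG libraries and none in AG. A bin cannot hold more than 10000 bases, so these differences stand at the ceiling. Only 2 tested bins were full in both GG libraries, and each of them held an AG base.

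In the 88 bins marked in all 4 libraries, both groups have bases to compare. Both GG libraries exceeded both AG libraries in 82 of them (93.2%), where 88.5% of such bins in the genome did. In 1 bin both AG libraries exceeded both GG libraries (1.14%, genome 3.61%), and in 5 the groups overlapped. Of the 87 that were tested, limma called 66 higher in GG (75.9%, genome 67.3%) and 0 higher in AG (genome 1.26%). At an unadjusted p under 0.05 these were 67 and 0. Without either GG library far fewer of these bins were called higher in GG, on chromosome 10 and over the genome. The direction rests on the scaling. When covered bases were scaled to each library's total, limma called 68 of the 87 higher in AG and 0 higher in GG. At an unadjusted p under 0.05 these were 73 and 0. Over the genome, 1963 of 2374 such bins were called higher in AG under this scaling and 0 higher in GG. With median-of-ratios factors 8 of the 87 were higher in AG and 22 higher in GG, where the genome had 537 and 361 of 2374. The 1 bin with AG on top ran from 83990001 to 84000000. AG replicates 1 and 2 covered 773 and 1436 bases of it, and the GG replicates 687 and 485. Its log2 difference of 0.63 with an SE of 0.333 did not pass the test (limma, adjusted p = 0.17).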

How the data were processed

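Groups and replicate numbers were read from the sample titles. The submitters' processing notes name the build rheMac8 and, with no role or order, deepTools 3.3.1, SICER 1.1, Bowtie2, SAMtools and Trim Galore. The deposited files hold start and end positions of intervals, which is another kind of value than a count or a signal, one file per library. The names of the deposited files give the SICER windows and gaps and an E value of 0.001, with tags filtered to islands. How tags were joined is not given in the sources used here. Within a file no intervals overlapped or touched, and lengths began at 20 bp.

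Covered bases were summed per bin with Python 3.11.15 and numpy 2.4.6, and scipy 1.17.1 gave the correlations. The bin test used limma 3.58.1 (lmFit, eBayes with trend) in R 4.3.3, coded AG minus GG with no block. It was also run on simulated libraries drawn around GG levels, with changes planted only toward GG. That run does not show whether changes toward AG are found, and nothing is read from it here. More sequencing or a wider calling gap can each raise the covered bases of a library without more of the mark. Between any 2 libraries at most 2 intervals on chromosome 10 were identical.

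Regions named are the 5 widest domains of each group, the 5 called bins highest in each direction, the 5 windows highest in each group and the 3 longest runs of AG-marked bins without GG coverage. The high stretches, the windows with the groups on opposite sides of the chromosome's level and other regions named beside them were chosen after their values were seen. Members, lists and tests were chosen with earlier results of these data known. The reference annotation was of another assembly, so genes and sequences were not used here. The alternatives tried are in the closing section. Among them are one clustering rule for all libraries (a gap of up to 200 bp bridged and clusters shorter than 1000 bp dropped) and thinning to 42512 intervals.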

Additional observations from a re-analysis of the deposited data

Results flagged for a closer look

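The window from 58000001 to 59000000 is listed because both AG libraries lay above their own chromosome 10 level and both GG libraries below theirs. It stood at 3.04 and 3.14 times that level in AG replicates 1 and 2 and at 0.515 and 0.821 times in GG replicates 1 and 2, a difference of 2.42 between the group means. This difference was not tested. Of 82 windows on chromosome 10, 8 (9.76%) split in this direction and 3 (3.66%) in the other. On the other autosomes 7.52% and 9.12% of windows did so relative to their own chromosome's level.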

How the results depend on the processing

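The place of chromosome 10 above the autosomes held in both groups under every alternative run. In GG this restates the choice of the chromosome. Its relative level stayed within 1 SD of the reported one with other widths left out at the ends, with the common clustering rule and with thinning. By the median of 1-Mb windows it was 2.74 times in AG and 3.51 times in GG. The median window of chromosome 16 was at least as high in every library. Without windows of 25% or more in both GG libraries the relative level of chromosome 10 was 1.09 times in AG and 1.54 times in GG. That alternative was chosen after seeing the data. Leaving out a library gave 1.11 to 1.20 times in AG and 1.70 to 2.00 times in GG. With 1500 bases to mark a bin there were 64 bins marked in both AG libraries, 51 marked in both groups and 10 in AG with no GG base. Thinning every library to 42512 intervals, which removes mainly GG intervals, left 325 bins marked in both GG libraries and 16 in both groups, and raised AG bins with no GG base to 60. Leaving out a library gave 130 to 291 AG-marked bins, 1387 to 1644 GG-marked bins, 88 to 173 bins marked in both groups and 36 to 100 AG bins with no GG base, the highest AG counts being those without AG replicate 1. Joined at 500 bp the GG N50 was 18439 bp and GG domains of at least 100 kb numbered 4.5 per library on average. Joined at 3000 bp the GG N50 was 41092 bp. Leaving out a library gave a GG N50 of 22748 to 37203 bp.

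In the bin test, scaling to library totals gave 104 bins higher in AG. A filter of 750 bases in all 4 libraries gave 0 higher in AG by limma, also 0 at an unadjusted p under 0.05, and 69 higher in GG, since it drops every bin that is bare in a group. Leaving out a library gave 17 to 33 bins higher in AG and 1172 to 1260 higher in GG. With the replicate block, 33 bins were higher in AG and 1236 higher in GG. Same-numbered libraries did not deviate together, with r = −0.0780 over 30536 bins and 0.0113 over the 2567 bins covered in all 4 libraries. In a bin bare in AG the AG replicates cannot differ, which limits the first value. The labels give only a shared number, and whether same-numbered libraries were prepared together is not known. None of 100 refits of the named bins changed direction. This was fixed in advance, since each bin was bare in both libraries of a group. The bin from 81660001 kept its log2 difference of 3.09 but lost its call without either GG library. The filter on all 4 libraries left no named bin to fit. Causes of these changes were not tested beyond what an alternative does by its construction. Depth is unknown and sets no limit that could be computed.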
